A study of Mus musculus with 30 samples.

Results

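The gastrocnemius muscle of the LD mice, which lived on a light-dark cycle that never shifted, was described by what it expressed and by how far its genes varied from mouse to mouse. All libraries labelled LD were taken, 14 of the 30 in the series, with 1 library per mouse. These were wild-type male C57BL/6J mice, housed singly with a running wheel, entrained for 2 weeks to 12 h of light and 12 h of darkness with lights on from 8:00 to 20:00, held for 2 weeks in constant darkness and then returned to the same cycle for 64 weeks. The plantaris was collected together with the gastrocnemius, and tissue was taken over a range of hours in the light period that is not broken down by mouse here. A pair of LD mice was lost before sampling.

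The gastrocnemius of the mouse is a mixed limb muscle in which fast fibers prevail. Fast and slow fibers are built from different genes for myosin, troponin and the calcium pump of the sarcoplasmic reticulum, and slow and oxidative fibers hold more mitochondria, myoglobin and fatty acid enzymes than fast glycolytic ones. A whole muscle also contains endothelium, fibroblasts, macrophages, nerve and fat cells, and many of its genes follow the time of day, feeding, fasting and activity.

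Reads counted on exons ranged from 19015401 to 28512674 per library, with a median of 21711467.5. The share of each library that fell on exons was 90.9 to 91.3%. No libraries were copies of each other, since the counts of the closest pair still differed with a chi-square of 10.6 per degree of freedom. Mouse 23 and mouse 33 stood apart: mouse 33 was the most deviating mouse for 2352 and mouse 23 for 1647 of the genes expressed, more than any of the others. Counts, leading lists and groups are therefore given also for the other 12 mice.

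Genes were called expressed when their mean over the 14 mice was above 20 reads and above 0.5 FPKM (fragments counted, scaled to exon length and library size). By this rule, 12025 of 56951 gene symbols were expressed, and they held 99.65% of the counted reads. At least 1 read was counted for 31268 symbols and none for 25683. Crybb1 and Gm17546, at a mean of 20.0 reads, lay just outside the limit on reads, and Tmem86b and Gm45193, at 20.1 reads, just inside. At the limit on FPKM, Gm43268 (0.499) and Uts2r, at 0.5 FPKM itself, lay just outside, and Gm56999 (0.5004) and Cyp4f18 (0.5005) just inside.

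Few genes made up most of the transcript pool. The 10 most abundant genes held 30.7 ± 0.57% of the summed FPKM (mean ± SD, n = 14), the 20 most abundant 44.8 ± 0.82% and the 100 most abundant 58.9 ± 0.57%. Only 33 genes were needed to reach 50% of the sum, while 2634 were needed for 90%. The median gene expressed was at 4.81 FPKM. Above 100 FPKM were 435 genes, above 1000 FPKM 39, and above 10000 FPKM 7.

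The 7 genes above 10000 FPKM were mitochondrial genes or genes of the contractile apparatus. mt-Co1, a subunit of cytochrome c oxidase encoded in the mitochondrial genome, led with 23139 ± 5314 FPKM (mean ± SD, n = 14), from 12587 in mouse 23 to 30495 in mouse 29. The fast troponin T gene Tnnt3 (19628 ± 1771 FPKM) and the skeletal actin gene Acta1 (16866 ± 1296 FPKM) followed. Their ranges, 17065 to 23595 and 15106 to 19180 FPKM, overlapped with each other and with that of mt-Co1, so the order of these 3 is not the same in every mouse. mt-Cytb (15918 ± 2619 FPKM), mt-Nd1 (12340 ± 2580 FPKM), Myh4 (11408 ± 2062 FPKM) and Tnnc2 (10187 ± 798 FPKM), the fast troponin C gene, completed the 7.

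**Figure D1:**
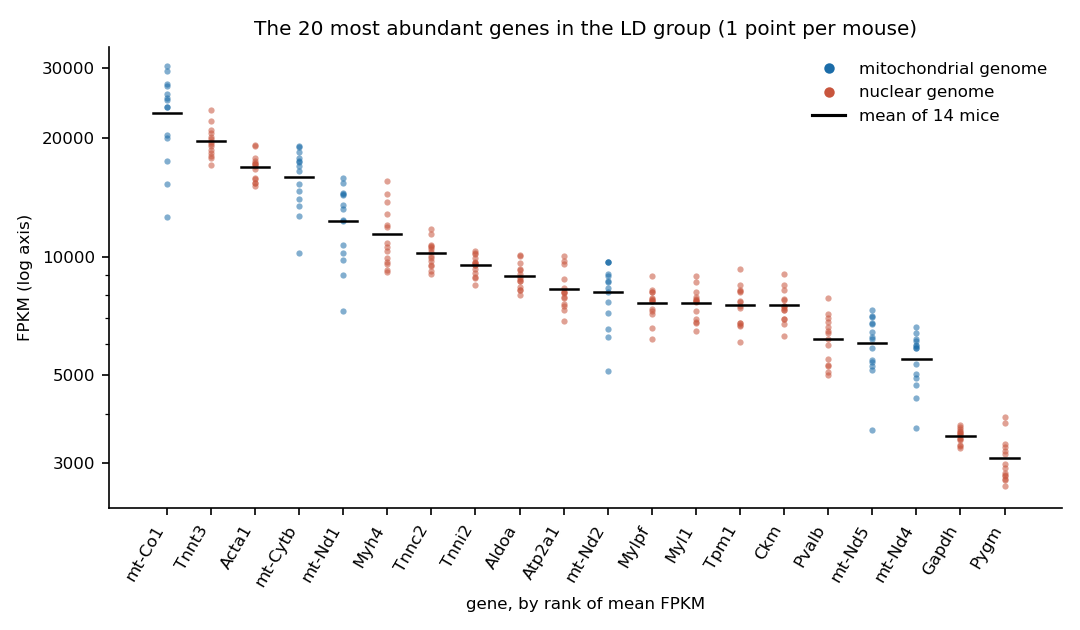
FPKM of the 20 genes with the highest mean, on a log axis, with 1 point per LD mouse and a bar at the mean of the 14 mice; blue points are genes of the mitochondrial genome. The mitochondrial genes spread more widely than most nuclear ones, and Gapdh lies between 3275 and 3747 FPKM.

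The next 13 ranks added genes of energy metabolism and calcium handling. They held the fast troponin I gene Tnni2 (9514 ± 562 FPKM, mean ± SD, n = 14), the glycolytic enzyme gene Aldoa (8949 ± 658 FPKM), and Atp2a1, the calcium pump of fast fibers (8273 ± 937 FPKM). Mylpf, Myl1, Tpm1, Ckm and Pvalb, which encode fast myosin light chains, tropomyosin, muscle creatine kinase and the calcium buffer parvalbumin, lay between 6183 and 7628 FPKM. Gapdh (3512 ± 146 FPKM) and the glycogen phosphorylase gene Pygm (3078 ± 401 FPKM) closed the list, together with mt-Nd2, mt-Nd5 and mt-Nd4 higher up. Exons of Tnnc2, Gapdh and Aldoa overlap those of other genes over 68.7, 41.6 and 43.1% of their bases, and reads in these stretches may belong to either.

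Genes of the mitochondrial genome held 16.8 ± 2.89% of the summed FPKM, between 10.5 and 20.5% by mouse. Of its 13 protein genes, mt-Co2, mt-Co3, mt-Atp6, mt-Atp8, mt-Nd3 and mt-Nd4l were measured at only 9.09 to 27.4 FPKM. Nuclear copies on chromosome 1 were counted at like levels, among them Gm29216 at 65.6, Gm28661 at 21.5 and Gm28437 at 17.4 FPKM. The authors removed reads of low mapping quality, to which reads with more than 1 place belong. The values of these 6 genes and of the copies are therefore uncertain. So are the share of the mitochondrial genome, which includes these 6 genes, and the ranks and shares of the most abundant genes.

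Among the 4 adult myosin heavy chains, Myh4, the chain of the fastest (IIb) fibers, made up 84.3 ± 5.91% of their summed FPKM (mean ± SD, n = 14). Myh1 (IIx) made up 10.4 ± 3.18%, Myh2 (IIa) 4.93% and the slow chain Myh7 0.359 ± 0.256%. The share of Myh4 ran from 76.9% in mouse 21 to 95.4% in mouse 23, and that of Myh2 from 0.511% in mouse 23 to 8.45% in mouse 32. Mouse 33, with 92.7% Myh4 and 1.04% Myh2, was second to mouse 23 on both counts. The order Myh4, Myh1, Myh2, Myh7 held in each of the 14 mice, although the ranges of Myh1 and Myh2 over the mice overlapped.

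Summed over lists of genes by role, the 16 fast fiber genes held 22.4 ± 2.46% of the FPKM of a library (mean ± SD, n = 14) and the 14 slow fiber genes 0.253 ± 0.115%. Actn2, of the Z disc, was the most abundant gene on the slow fiber list. Genes common to all sarcomeres held 7.05 ± 0.529%, glycolysis and glycogen genes 5.78 ± 0.457%, nuclear genes of the respiratory chain 1.59 ± 0.194%, and 16 genes of the cytosolic ribosome 0.785 ± 0.0314%. Genes that define skeletal muscle thus led the tissue, as its label states.

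Other cell types of the tissue were present at lower levels. Pecam1 and Cdh5, genes of endothelial junctions, were at 20.1 and 19.6 FPKM on average, and all 14 endothelial genes passed the expression filter. The collagen genes Col1a1 and Col3a1 were at 9.48 and 23.8 FPKM, and the matrix gene Dcn at 251 FPKM. The myelin gene Mbp was at 9.38 FPKM, the tendon gene Tnmd at 2.65 FPKM and the hemoglobin gene Hbb-bs at 57.5 FPKM. In bulk tissue, fewer cells of a type and less RNA per cell cannot be told apart.

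Some cells that a dissection could carry along left little trace in most mice. None of 12 T and NK cell genes and none of 10 neutrophil genes was expressed, Ly6g and Elane being at 0 in all mice. The neutrophil genes summed to 22.8 FPKM in mouse 22, however, against 1.25 to 3.93 FPKM in the other mice. S100a9, at 12.0 FPKM in mouse 22 with a median of 0.826, missed the limit on reads with a mean of 19.7. Of 7 skin genes in the table, Krt5, Krt14 and Krt15 were at 0 in all mice, and only Krt10 and Sfn passed the filter, at 0.515 and 0.979 FPKM. Of the satellite cell and regeneration list 7 of 14 genes passed, Myh8, the perinatal myosin, being the most abundant at 8.47 ± 1.88 FPKM (mean ± SD, n = 14) and Pax7 staying under the filter.

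The spread of each gene was measured as its between-mouse coefficient of variation (CV), the square root of the dispersion that edgeR estimates after the counting error is set aside. Over the 12025 genes expressed, the median CV was 9.95%, with quartiles at 6.35 and 16.0%. It was 12.4% for genes at 0.5 to 5 FPKM, 7.86% at 5 to 50 FPKM, 8.52% at 50 to 500 FPKM and 10.3% above 500 FPKM. A CV over 50% was found for 160 genes, and over 100% for 3, which were Igkc, Jchain and Cish.

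To compare genes of unlike abundance, each CV was divided by the CV of the edgeR trend at the same abundance. This spread ratio had a median of 0.644, since the trend lies above the middle gene, and a 95th percentile of 1.95. A ratio over 2 was reached by 557 genes (4.63% of those tested), over 1.5 by 1193 and over 3 by 161. Without mouse 23 and mouse 33, 550 genes (4.57%) had a ratio over 2, and 465 were over 2 both ways. Aff1 and Thbd, both at 2.00 rounded, lay just under the limit, and Acsl3 and Col1a1 just over it.

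**Figure D2:**
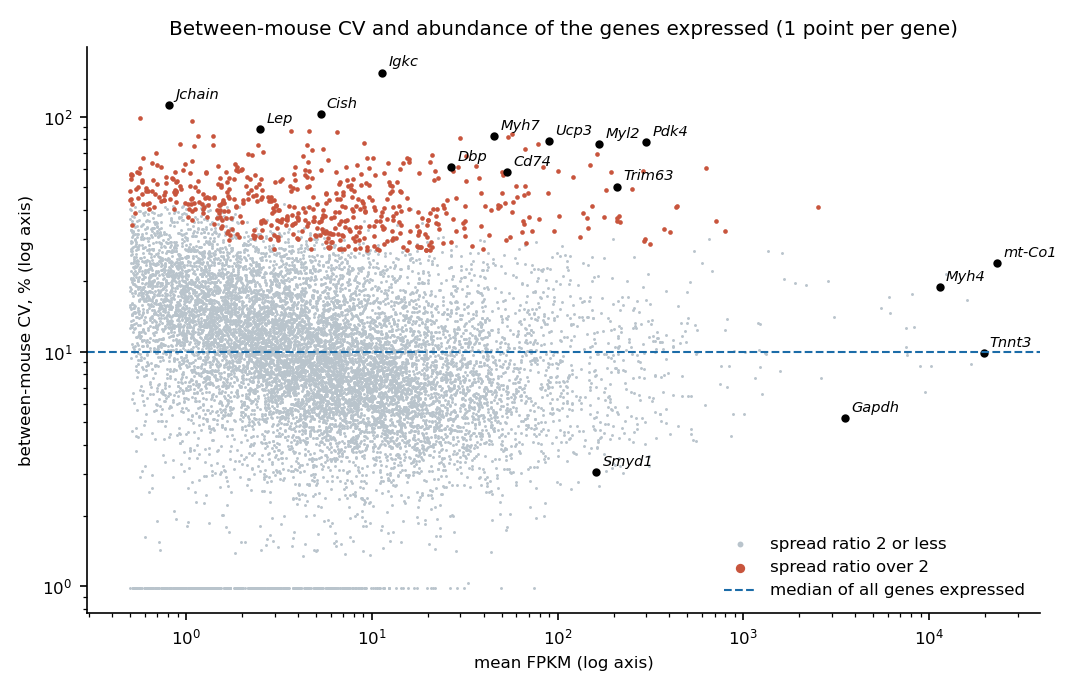
Between-mouse CV of each gene expressed against its mean FPKM over 14 LD mice, both on log axes; red points have a spread ratio over 2, black points are named genes and the dashed line marks the median CV of 9.95%. Igkc, Jchain and Cish lie above 100%, while Gapdh and Smyd1 lie below the median; the row of points at the bottom is the lowest value the estimate can take.

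Genes of the calcium store and of muscle development were among the least variable of the abundant genes. Among 197 genes with a mean of at least 10000 reads, a limit chosen after the values were seen, the smallest ratio belonged to Smyd1, a methyltransferase gene of muscle development, with a CV of 3.06% and 150 to 170 FPKM. Lamp1, a lysosomal membrane gene, had a CV of 3.28%, Tmem38a, a potassium channel gene of the sarcoplasmic reticulum, 4.17%, and Hrc, a calcium binding gene of the same store, 4.28%. Gapdh had a CV of 5.21%. Among less abundant genes the smallest spread could not be ranked, since 384 genes, with a median of 95.4 reads, shared the lowest estimate of 0.988%, Plgrkt among them, and their spread was not detectable over the counting error.

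Lists of genes by role differed in how many members had a ratio over 2. Of the 14 slow fiber genes, Myh7b did not pass the filter and the other 13 all had a ratio over 2, against 4.63% of all genes tested. Their median ratio was 4.88, against 0.644 over all genes, and without mouse 23 and mouse 33 it was 3.63, with 12 of 13 over 2. The count was 11 of 14 for glucocorticoid response genes (median 3.29), 11 of 14 for macrophage and antigen presentation genes (2.30), 10 of 16 for adipocyte genes (3.15), 9 of 15 for genes that respond to fatty acids (2.48), 7 of 14 for clock genes opposed in phase to Bmal1 (2.02) and 11 of 22 for immediate early genes (2.00). Without mouse 23 and mouse 33, it was 11, 7, 10, 9, 7 and 12.

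Ratios over 2 were absent for glycolysis and glycogen (16 expressed, median ratio 0.587), the cytosolic ribosome (16, 0.350) and the proteasome (15, 0.376). They were also absent for the nuclear respiratory chain (17, 0.862), erythroid cells (5, 1.01) and tendon (8, 1.46). The medians of these latter lists were above the 0.644 of all genes. Since 4.63% of all genes tested had a ratio over 2, lists this short may hold none at that share. The fast fiber list had 1, Myh2, among 16, with a median of 0.818. Lists with 1 to 4 such genes were those of shared sarcomere genes (2 of 13), endothelium (2 of 14), smooth muscle and pericytes (1 of 10), fibroblasts and matrix (1 of 14), Schwann cells (1 of 10), satellite cells (1 of 7), the neuromuscular junction (2 of 13), heat shock (3 of 18), the integrated stress response (4 of 14), atrophy (2 of 18), interferon (1 of 15) and lipogenesis (4 of 14), with list medians between 0.644 and 1.50. Of these, the count without mouse 23 and mouse 33 differed by more than 1.5 times for shared sarcomere genes (1), Schwann cells (3) and interferon (4). With all 14 mice, the count was 3 of 7 for clock genes that move with Bmal1 (median 1.04), 5 of 15 for myokines and growth factors (1.67) and 3 of 8 for metallothioneins and metal genes (1.95). For the mitochondrial genome it was 3 of 13 (1.47), namely mt-Atp6, mt-Atp8 and mt-Co3, of uncertain value.

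**Figure D3:**
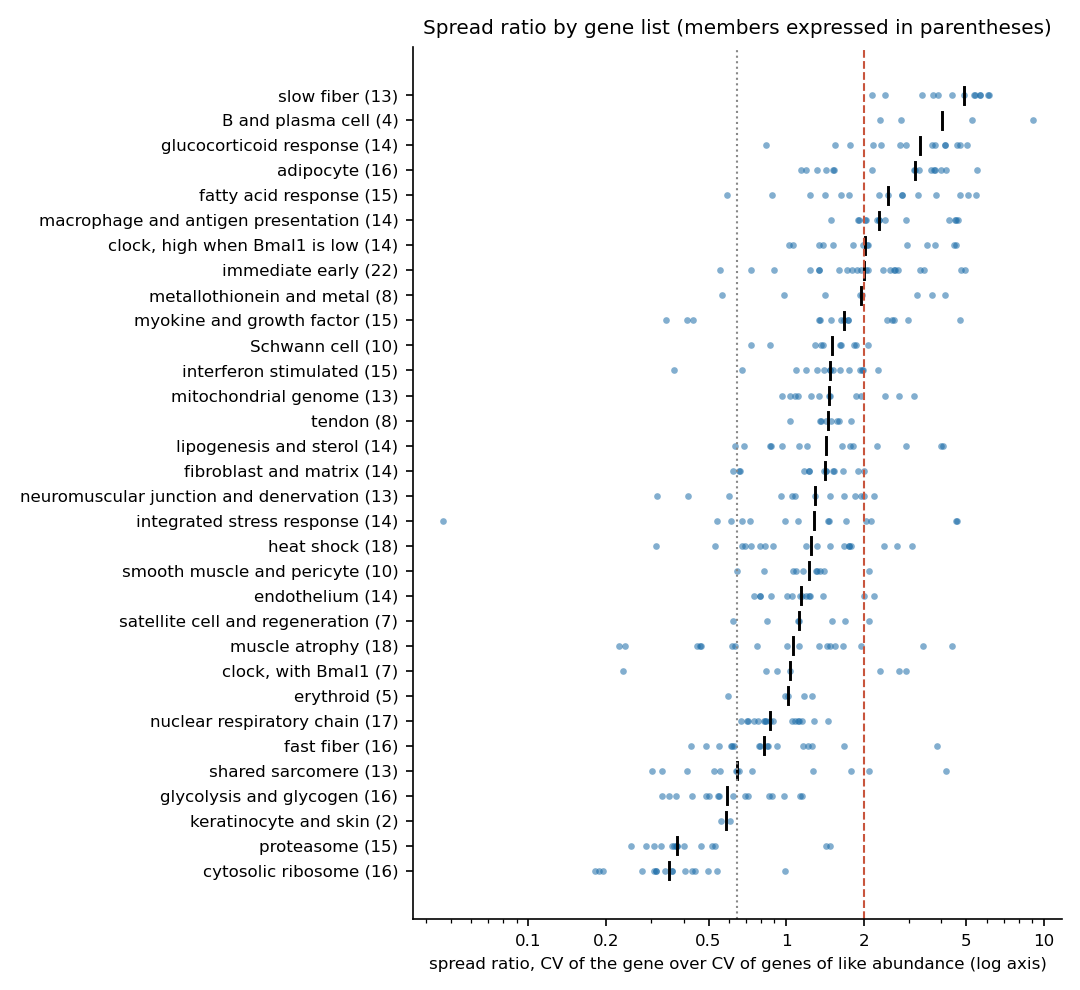
Spread ratio of each expressed member of the gene lists on a log axis, with 1 point per gene and a bar at the list's median; the red dashed line is the limit of 2 and the gray dotted line the median of all genes expressed, 0.644. The slow fiber list and the 4 B and plasma cell genes lie wholly to the right of the limit, and the ribosome, proteasome and glycolysis lists wholly to the left.

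For 209 of the 557 genes, leaving out the mouse that deviated most brought the ratio to 2 or less, and for 348 it did not. That mouse was mouse 33 for 142 of the 557 genes, high in 85 and low in 57, and mouse 23 for 141, low in 119. Each of the other 12 mice was the most deviating for 6 to 44 of these genes. The 500 genes of largest ratio with a mean of at least 50 reads were then grouped by the Spearman correlation of their log2 CPM (counts scaled to library size) over the 14 mice, which placed 389 of them in 12 groups of 8 to 92 genes. As the groups were made from these values, they are described with no test.

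**Figure D4:**
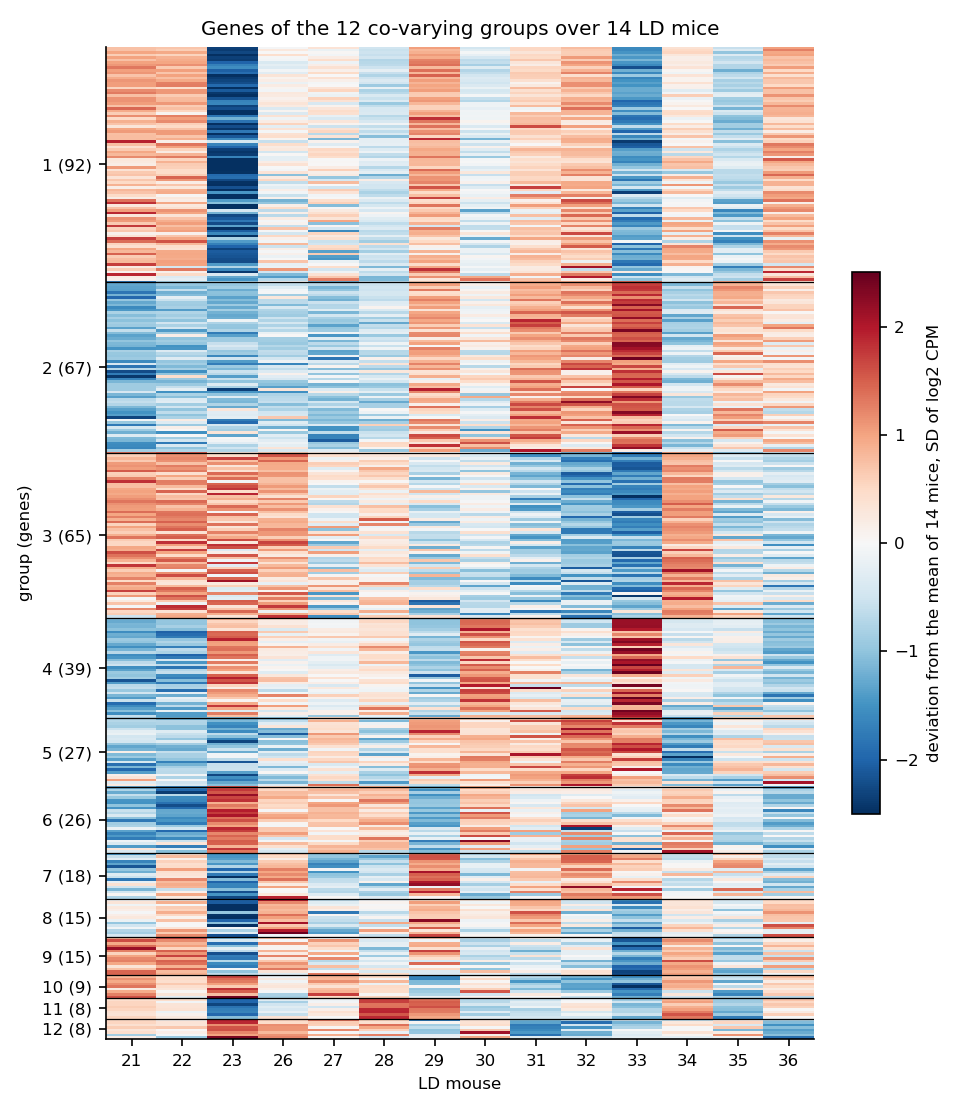
Heat map of the 389 genes of the 12 co-varying groups (rows, with the number of genes in parentheses) over the 14 LD mice (columns); color shows the deviation of log2 CPM from the gene's mean, in SD. Mouse 23 is blue in groups 1 and 8 and red in group 6, and mouse 33 is red in groups 2 and 4 and blue in groups 3, 9 and 10.

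The largest group (group 1) contained nearly all slow fiber genes. It held 92 genes with a mean rho of 0.77 between them, among them 12 of the 13 slow fiber genes expressed, the fast oxidative myosin Myh2, the myoglobin gene Mb, Fabp3, the nuclear receptor genes Ppara, Esrrb and Esrrg, and metabolic genes such as Ldhb, Idh2 and Ckmt2. The genes closest to the rest of the group were Fndc5, the gene of the irisin precursor, Smtnl1, Cyfip2, Actn2 and Ldhb. Its values were lowest in mouse 23, at a mean of 2.04 SD under the average of each gene, and highest in mouse 29. Without mouse 23, 75 of the 92 genes still fell in 1 group, and without mouse 23 and mouse 33, 42, with a mean rho of 0.67.

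Myh7 (chromosome 14, 55208141 to 55232083, minus strand, GRCm39) ranged from 3.88 to 91.7 FPKM, with a median of 44.7. Mouse 23 was lowest, followed by mouse 27 and mouse 33, and mouse 22 and mouse 34 were highest. The slow troponin C gene Tnnc1 ranged from 3.87 to 104 FPKM (median 55.4), the slow troponin I gene Tnni1 from 2.37 to 57.3 FPKM (median 28.4), and Tnnt1 from 7.28 to 154 FPKM (median 78.7). These 3 troponin genes had their lowest value in mouse 23 and their highest in mouse 22 or mouse 34, as Myh7 did. Myl2, the slow light chain, went from 10.2 FPKM in mouse 23 to 327 FPKM in mouse 36, and Tpm3, slow tropomyosin, from 8.57 to 116 FPKM. Each of these 6 genes kept a ratio over 4 without its most deviating mouse.

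Mb, Myh2, Fabp3 and Ldhb were also lowest in mouse 23 and next lowest in mouse 33. Mb, the oxygen store of oxidative fibers, was at 795 FPKM in mouse 23, 1046 FPKM in mouse 33 and up to 3566 FPKM in mouse 21, with a median of 2613. Myh2 ranged from 83.4 to 1046 FPKM and Fabp3, which carries fatty acids in the cytosol, from 140 to 630 FPKM, both lowest in mouse 23. Ldhb, the heart type lactate dehydrogenase, ranged from 35.2 to 337 FPKM. Actn2, of the Z disc, had a ratio of 2.16, and of 1.52 without mouse 23. H19, an imprinted RNA in the group, contains Mir675, and Fabp3 has a pseudogene, Fabp3-ps1, in the same group, so reads may be shared in each case.

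The slow fiber sum was 213 FPKM in mouse 23, 384 FPKM in mouse 33 and 683 to 1740 FPKM in the other 12 mice. Of its mean of 1132 FPKM, however, Actn2, of the Z disc, made up 374 FPKM, and in mouse 23 it was at 136 FPKM. In the same mice the sum of the fast fiber genes was 118293 FPKM in mouse 23 and 109552 FPKM in mouse 33, against 86057 to 110118 FPKM in the others. The protein genes of the mitochondrial genome summed to 42630 FPKM in mouse 23, 52947 FPKM in mouse 33 and 57518 to 86435 FPKM in the rest, and the nuclear respiratory chain genes were also lowest in mouse 23, at 5517 FPKM. Each library's slope of expression against GC content had a median rho of -0.54 with the genes of the group. With this trend removed, 83 of the 92 genes still fell in 1 group, and the ratio of Myh7 was 5.74, against 5.66 before.

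**Figure D5:**
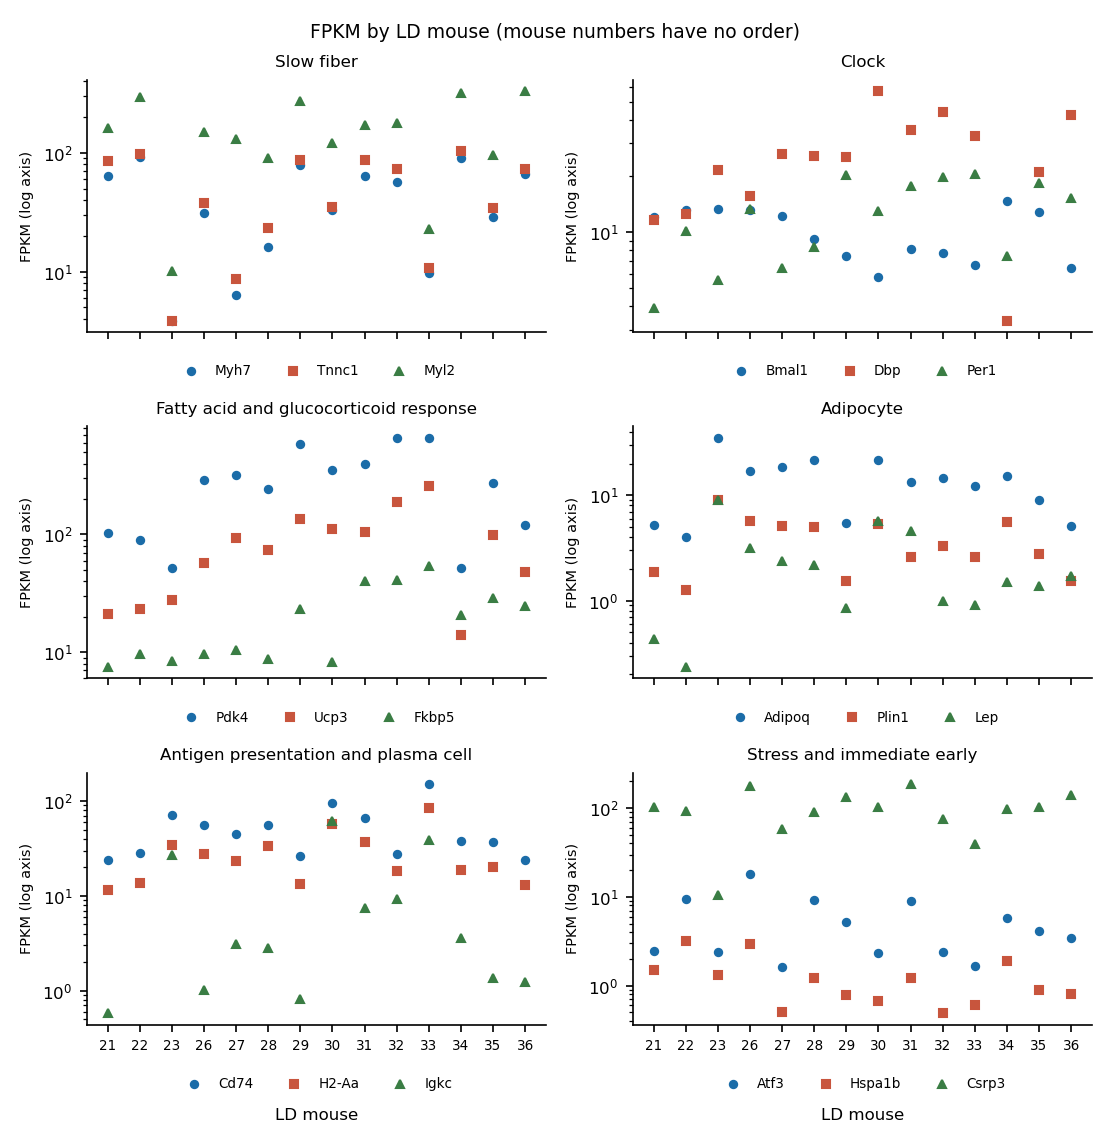
FPKM on log axes of 18 genes in the 14 LD mice, 1 point per mouse and gene, in 6 panels by role; Igkc was 0 in mouse 22 and has no point there. Myh7, Tnnc1 and Myl2 are low in mouse 23 and mouse 33, and Myh7 is low in mouse 27 too. Bmal1 and Dbp run against each other, and Cd74 and H2-Aa are highest in mouse 33.

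Clock genes varied widely between these mice. Transcripts of the clock change with the hour, the mice were killed over much of the light period, and spread from the hour of sampling cannot be told apart from spread between mice here. BMAL1, with CLOCK or NPAS2, activates the genes of the PER and CRY repressors and of output factors such as DBP through E-box elements. Bmal1 ranged from 5.75 FPKM in mouse 30 to 14.8 FPKM in mouse 34, with a median of 10.6. Dbp went the other way, from 3.36 FPKM in mouse 34 to 56.9 FPKM in mouse 30, with a median of 25.4 and a ratio of 4.55, the largest of the clock genes. Over the 14 mice, Bmal1 and Dbp had a Pearson r of -0.79 (two-sided permutation test, p = 2.1e-04, 4.67e-04 after Benjamini-Hochberg adjustment over 20 gene pairs). Spearman's rho was -0.80 (p = 0.00102 by the same test, 0.00227 adjusted), and r was -0.72 without mouse 30 and mouse 36.

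Not every clock gene varied in this way. Ciart, a repressor of the clock, ranged from 0.584 to 8.97 FPKM (ratio 4.47), Per1 from 3.92 to 20.6 FPKM (3.77), Per2 from 0.684 to 4.53 FPKM (3.503) and Usp2, a deubiquitinase gene, from 27.7 to 77.6 FPKM (2.94). Per3 and Cry2 had ratios of 2.08 and 2.06, which without the most deviating mouse were 1.75 and 1.54. Nr1d1, the most variable of the REV-ERB genes, had a ratio of 1.98, and Nr1d2, Tef and Hlf had ratios of 1.06, 1.02 and 1.34. In the arm of Bmal1, Nfil3 (ratio 2.93), Npas2 (2.73) and Bmal1 itself (2.30) were over 2, while Cry1 and Clock had ratios of 1.04 and 0.924. Exons of Nr1d1 overlap those of Thra on the other strand over 52.3% of their bases.

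Per1 and Ciart are shown here by their promoters, as examples of variable clock genes whose 250 bases before the transcription start (RefSeq, GRCm38.p6, the first start listed for each gene) hold the E-box CACGTG, given in capitals. The Per1 window is chr11:69098699-69098948 on the plus strand, and its E-box begins at position -166 from the start. The Ciart window is chr3:95882229-95882478 on the minus strand, with E-boxes at -116, -58 and -44.
Per1: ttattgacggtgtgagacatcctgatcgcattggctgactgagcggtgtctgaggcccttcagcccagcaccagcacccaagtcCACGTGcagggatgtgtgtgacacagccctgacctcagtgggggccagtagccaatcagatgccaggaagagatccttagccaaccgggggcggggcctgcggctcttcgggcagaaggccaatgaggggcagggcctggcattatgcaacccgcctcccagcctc
Ciart: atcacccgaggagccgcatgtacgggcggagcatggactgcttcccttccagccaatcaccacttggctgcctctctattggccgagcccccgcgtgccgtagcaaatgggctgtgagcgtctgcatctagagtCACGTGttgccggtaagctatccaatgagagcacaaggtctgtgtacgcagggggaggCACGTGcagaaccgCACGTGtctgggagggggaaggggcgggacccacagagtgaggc
The motif reads the same on both strands. It was found in the same window of 4 of 12 genes of the list opposed in phase to Bmal1 and in 779 of 8963 expressed genes with a promoter in the table (8.69%). The D-box TTANNTAA, which DBP binds, searched on both strands, was found in 2 of the 12 and in 3.11% of all. Dbp, Usp2, Cry2 and Per3 had no CACGTG within these 250 bases. A match is a run of letters, and no binding was measured here.

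The clock genes fell into different groups. Bmal1 and Npas2 were in group 3 (65 genes, highest in mouse 34 and lowest in mouse 33), beside Tspan2, Rarb, the collagen chaperone gene Serpinh1, Ppp1r27, Fam167a, the endothelial receptor gene Kdr, and Hspa1a and Hspa1b. Per1, Per2, Usp2 and Cry2 were in group 2 (67 genes, highest in mouse 33 and lowest in mouse 21). Dbp and Ciart were in group 5 (27 genes, highest in mouse 32 and lowest in mouse 34). The median rho was -0.69 between groups 2 and 3, -0.69 between groups 3 and 5, and 0.60 between groups 2 and 5. Groups 2 and 3 kept 54 and 50 of their genes together without mouse 23 and mouse 33, and group 5 kept 9. Without mouse 34 alone, group 5 kept 7.

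Group 2 also held genes that glucocorticoids induce, 6 of the 14 expressed on that list. Fkbp5, a co-chaperone of the glucocorticoid receptor, was at 7.48 FPKM in mouse 21, the lowest, and at 54.0 FPKM in mouse 33, the highest, with a median of 15.6. It was at 20.8 FPKM or more in 7 of the 14 mice and at 10.5 FPKM or less in the other 7. Cimap1d, the third most variable gene of all, ranged from 12.2 to 193 FPKM with the same mice at its ends. Mt1 and Mt2, metallothionein genes, ranged from 9.79 to 44.7 and from 5.05 to 35.8 FPKM, Zbtb16 from 10.4 to 35.02 FPKM and Foxo1, which drives atrophy genes, from 1.75 to 9.61 FPKM. All of these genes were highest in mouse 33. Doc2b, Plin4, Slc43a3 and Sult1a1 were, with Cimap1d, the genes closest to the rest of the group. Doc2b, with a mean of 0.565 and a median of 0.407 FPKM, passed the filter through its high mice, mouse 33 being highest at 1.76 FPKM. Its place in the group is thus tied to the filter and is no separate result. Mt2 overlaps Gm45774 on the other strand over 82.4% of its exon bases.

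Not all listed glucocorticoid genes were in the group: Tsc22d3 ranged from 46.0 to 98.0 FPKM with a ratio of 1.55, and Gpd1 had a ratio of 0.833. Fkbp5 and Tsc22d3 had an r of 0.50 (two-sided permutation test, p = 0.0670, 0.0745 adjusted over the pairs), which did not pass the threshold.

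Group 5 was led by genes such as Srsf5, Acot2, Pdk4 and Slc25a22 and held 4 of the 15 fatty acid response genes. Pdk4 (chromosome 6, 5483351 to 5496309, minus strand, GRCm39), the kinase gene that shuts off pyruvate oxidation, ranged from 51.8 to 663 FPKM with a median of 282. The lowest mice were mouse 23 and mouse 34, at 51.8 and 52.0 FPKM, and the highest mouse 33 and mouse 32, at 663 and 655 FPKM. Ucp3, a mitochondrial uncoupling protein gene, ranged from 14.1 FPKM in mouse 34 to 257 FPKM in mouse 33. Acot2, a thioesterase gene, ranged from 3.04 to 14.4 FPKM, Plin5, of lipid droplets, from 2.99 to 29.1 FPKM, and Angptl4, an inhibitor of lipoprotein lipase outside the groups, from 0.427 to 5.23 FPKM. Pdk4 and Angptl4 had an r of 0.78 (two-sided permutation test, p = 0.00177, 0.00354 adjusted) and a rho of 0.77 (0.00414 adjusted), and r was 0.88 without mouse 23 and mouse 34. Fatty acid oxidation genes such as Cpt1b and Hadha had ratios of 0.880 and 1.42.

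Group 7, of 18 genes, brought together Fam107a, the kinase gene Pim3, Klf15, the mTOR inhibitor gene Ddit4, Arrdc2 and the ubiquitin ligase gene Trim63. It was highest in mouse 29 and lowest in mouse 23, and 12 of its genes stayed together without mouse 23 and mouse 33. Arrdc2 ranged from 7.25 to 58.8 FPKM and Ddit4 from 2.51 to 23.7 FPKM. Trim63 (MuRF1) ranged from 107 to 463 FPKM with a median of 153, with mouse 33 highest, followed by mouse 35 at 360 FPKM and mouse 29 at 351 FPKM. Fbxo32 (atrogin-1), the other well known ligase of atrophy, ranged from 57.1 to 124 FPKM with a ratio of 1.67. Trim63 and Fbxo32 had an r of 0.69 (two-sided permutation test, p = 0.00713, 0.0107 adjusted) and a rho of 0.71 (0.0104 adjusted). With 1 mouse left out at a time r was 0.61 to 0.83, and without mouse 33 and mouse 35 it was 0.51 (p = 0.0899, same permutation test), which no longer passed. Other genes of the atrophy list, Nedd4 and Foxo4, had ratios of 0.236 and 0.225.

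Group 6, of 26 genes, was led by Adipoq, Acp5, Tmem45b, Mmd and Plin1 and held 6 of the 16 adipocyte genes, namely Adipoq, Plin1, Cfd, Lep, Retn and Scd1, beside Fasn, Nnat, Phgdh and Col1a1. Its values were highest in mouse 23 and lowest in mouse 22, and 13 of its genes stayed together without mouse 23 and mouse 33. Adipoq, the adiponectin gene, ranged from 4.00 FPKM in mouse 22 to 35.1 FPKM in mouse 23 (median 13.98), Plin1, which coats lipid droplets, from 1.25 to 8.99 FPKM, and Lep, the leptin gene, from 0.235 to 9.02 FPKM. All 3 had mouse 22 at the low end and mouse 23 at the high end. Not every gene of the adipocyte list ran this way. Adig went the other way, from 2.18 FPKM in mouse 23 to 5.80 FPKM in mouse 22 (ratio 1.32), and Acsl1 was also lowest in mouse 23. The sum of the list was highest in mouse 30, at 1432 FPKM, against 1324 FPKM in mouse 23. Adipoq and Plin1 had an r of 0.96 and a rho of 0.91 (two-sided permutation test, p = 1e-05, the smallest it can give, and 2e-05; 3.33e-05 and 1.33e-04 adjusted). For Adipoq and Fasn, the fatty acid synthase gene, r was 0.53 (p = 0.0496, 0.0584 adjusted).

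Of the other genes of the adipocyte list, Cidec, Pck1 and Cebpa were in group 4 and Plin4 in group 2. Car3, its most abundant gene at 678 ± 138 FPKM (mean ± SD, n = 14), is also made by muscle fibers and had a ratio of 1.43, and Pparg and Fabp4 had ratios of 1.14 and 1.19. Col1a1 was in group 6 with a ratio of 2.00. Col1a1 and Col3a1 had an r of 0.95 (two-sided permutation test, p = 1e-05, 3.33e-05 adjusted), and 0.82 without mouse 23 and mouse 32.

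Group 4, of 39 genes, was led by the class II antigen presentation genes H2-Ab1, H2-Aa, H2-Eb1 and Cd74 and the lysozyme gene Lyz1, and held 8 of the 14 macrophage and antigen presentation genes, the complement genes C3, C7, C4b and Cfb, and Apoe. It also held Igkc and 3 genes of the adipocyte list, Cidec, Pck1 and Cebpa, so fat cell genes were part of this group too. Without mouse 23 and mouse 33, 24 of its genes stayed together. Cd74, the invariant chain, ranged from 23.6 to 151 FPKM with a median of 41.3, and H2-Aa from 11.6 to 84.8 FPKM with a median of 21.8. Mouse 33 was highest for both and mouse 30 second, at 95.4 and 56.9 FPKM. The summed macrophage and antigen presentation list was 596 FPKM in mouse 33, 437 FPKM in mouse 30 and 150 to 310 FPKM in the other 12 mice. Cd74 and H2-Aa had an r of 0.99 and a rho of 0.99 (two-sided permutation test, p = 1e-05 for each, the smallest it can give, 3.33e-05 and 1e-04 adjusted), and r was 0.97 without mouse 33 and mouse 30.

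Over all 14 mice, groups 4 and 6 ran together, with a median rho of 0.58 between their genes. Group 1 ran against both, with a median rho of -0.64 with group 4 and -0.50 with group 6. Mouse 23 was lowest in group 1 and highest in group 6, and mouse 33 was highest in group 4. These rhos were not determined without mouse 23 and mouse 33, so how far they rest on these mice is not known. Of the mice lowest in slow fiber genes, mouse 33 had the highest antigen presentation sum and mouse 23 the highest Adipoq. The endothelial list moved less, from 283 to 395 FPKM in sum. Of its mean sum of 353 FPKM, however, Fabp4, which is also on the adipocyte list, made up 172 FPKM. Of its 14 genes 2 had a ratio over 2, Kdr (2.20) and Cldn5 (2.00). The part of cell content in these relations was not tested.

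Igkc, the immunoglobulin kappa constant gene, was the most variable gene, with a ratio of 9.03. No read was counted in mouse 22, the median was 2.98 FPKM, and the highest values were 26.998 FPKM in mouse 23, 39.0 FPKM in mouse 33 and 61.5 FPKM in mouse 30. The other 11 mice were at 9.37 FPKM or less. Of 14 B and plasma cell genes 4 passed the filter, Igkc, Jchain, Ighm and Ighg2c, and all 4 had a ratio over 2 (median 4.01). The filter is set on the mean, and Jchain, with a mean of 0.809 and a median of 0.381 FPKM, passed through its high mice. Its large ratio is thus tied to the filter and is no separate result. Jchain, which joins secreted antibodies, ranged from 0.030 to 3.76 FPKM, highest in mouse 30, and Ighm from 81.2 to 268 FPKM, also highest in mouse 30. Igkc and Jchain had an r of 0.90 (two-sided permutation test, p = 1e-05, 3.33e-05 adjusted) and a rho of 0.85 (5.25e-04 adjusted), and r was 0.87 without mouse 22 and mouse 30. Since Jchain passed the filter through its high mice, and mouse 30 was highest for both genes, this relation is tied to the filter as well. The B cell genes Ms4a1 and Cd79a were under the filter. Igkc overlaps Gm68839 on the other strand over 97.9% of its exon bases.

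Of the 15 interferon genes expressed, 1, Gbp3, had a ratio over 2 (2.27), against 4 without mouse 23 and mouse 33, and outside that list 2 related genes were high in a single mouse. Gm4841 and Iigp1, GTPase genes that interferon induces, were at 40.2 and 21.03 FPKM in mouse 31, while the next highest mouse was at 5.62 FPKM for Gm4841 and 4.06 FPKM for Iigp1. Their ratios of 6.01 and 5.77 were 2.40 and 3.22 without mouse 31. The sum of the interferon list was highest in the same mouse, at 73.8 FPKM against a median of 53.3. Gbp10, a related GTPase gene, was high in both mouse 31 and mouse 29, at 13.7 and 13.6 FPKM, but its exons overlap those of Gm43302 over 44.04% of their bases. Irf7 and Ifit3 had an r of 0.74 (two-sided permutation test, p = 0.00206, 0.00375 adjusted) and a rho of 0.60 (0.0377 adjusted). With 1 mouse left out at a time r was 0.62 to 0.81, and without mouse 31 and mouse 29 it was 0.54 (p = 0.0739, same permutation test), which no longer passed.

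Group 8, of 15 genes, was led by Enah, Myh10, Ankrd2, Klhl34 and Gm56624 and held Csrp3, Xirp1, the immediate early genes Atf3 and Dusp1 and the heat shock gene Hspb7. It was lowest in mouse 23 and highest in mouse 26, and 8 of its genes stayed together without mouse 23 and mouse 33. Ankrd2, a stretch response gene, was at 10.8 FPKM in mouse 23 and at 75.8 to 204 FPKM in the other 13 mice, and Csrp3, of the Z disc, was at 10.4 FPKM in mouse 23 and 39.3 to 186 FPKM in the others. Their ratios of 3.93 and 4.28 were 2.13 and 2.90 without mouse 23. Atf3 ranged from 1.63 to 18.1 FPKM, with mouse 26 highest and mouse 22 next at 9.40 FPKM. Klhl34 lies wholly within exons of Cnksr2 on the other strand.

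Of the immediate early genes, Nr4a3 had the largest ratio (4.96), with values from 0.174 FPKM in mouse 32 to 3.39 FPKM in mouse 22. Fos ranged from 0.660 to 4.57 FPKM and Egr1 from 0.899 to 1.83 FPKM, and both were lowest in mouse 23. Fos and Atf3 had an r of 0.64 (two-sided permutation test, p = 0.0133, 0.0178 adjusted) and a rho of 0.58 (0.0451 adjusted). Fos and Egr1 had an r of 0.62 (0.0202 adjusted) but a rho of 0.55 (0.0570 adjusted), and r was 0.36 (p = 0.248, same permutation test) without mouse 23 and mouse 31, so by r this relation rests on those mice. Klf2 and Klf4, factors of endothelium and other cells, had ratios of 3.44 and 3.32.

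The inducible heat shock genes Hspa1a and Hspa1b ranged from 0.745 to 3.61 and from 0.488 to 3.18 FPKM, both highest in mouse 22 and next in mouse 26, and as the sequences of the pair are nearly the same, a read of one may be counted on the other. Hspa1b and the co-chaperone gene Dnajb1 had an r of 0.72 (two-sided permutation test, p = 0.0041, 0.00683 adjusted). The abundant heat shock genes differed among themselves. Hspa8, at 341 FPKM, and Hsp90ab1, at 447 FPKM, had ratios of 0.676 and 0.313. Cryab, the most abundant of the list at 545 FPKM, had a ratio of 1.78, and Hspb7, at 209 FPKM, of 2.40. Cish, a target and inhibitor of STAT5 signaling and the second most variable gene, was in no group and ranged from 0.354 FPKM in mouse 34 to 18.1 FPKM in mouse 31, with a median of 3.98.

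Groups 9 to 12 were small. Group 9 (15 genes, led by Atp1b4, Aqp4, Dapp1, Alpl and Gm37691, with Ppargc1a) and group 10 (9 genes, led by Cxxc5, Mrtfa, Mc5r, Sec14l5 and Pcdh12) were lowest in mouse 33, and group 12 (8 genes, with Cited4, Mast4, Fam83d and Pfkfb3) was highest in mouse 23. Without the mouse farthest from the others, 1, 0 and 0 of their genes stayed in 1 group, and without mouse 23 and mouse 33, 5, 2 and 1. Aqp4, the water channel gene of fast fibers, ranged from 1.03 to 5.44 FPKM. Ppargc1a, the coactivator of mitochondrial genes, ranged from 4.57 to 15.3 FPKM, lowest in mouse 23 and mouse 33, and Pfkfb3, an activator of glycolysis, from 23.01 to 126 FPKM. Group 11 (8 genes, led by Gm13341, mt-Co3, Gm29216, mt-Tw and mt-Atp6) held mitochondrial genes and their nuclear copies, with a median GC content of 37.3% and a median rho of -0.75 with the libraries' slope against GC content. All 8 stayed together with that trend removed, without mouse 23, and without mouse 23 and mouse 33.

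The groups were also set beside measures of the libraries. Over the 12 groups, the median rho with the exon reads of a library lay between -0.42 (group 5) and 0.27 (group 3), against a median absolute rho of 0.18 over all genes, and that with the exon share between -0.29 and 0.36, against 0.21. With the slope against GC content, the range was -0.75 to 0.35, against 0.29. Their part in the groups was not tested.

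In all, 16 of 20 gene pairs with shared or opposed roles passed an adjusted p of 0.05 by Pearson's r, and 15 by both coefficients. Both counts include Igkc and Jchain, the pair tied to the filter. The pairs were chosen with earlier results of these data known. The share of other gene pairs that would pass was not determined, so these counts do not measure the part of shared roles. Slow and fast myosin ran against each other, with an r of -0.68 between Myh7 and Myh4 (two-sided permutation test, p = 0.00751, 0.0107 adjusted), which was -0.81 without mouse 23 and mouse 27 but -0.57 (0.0563 adjusted) without mouse 23 alone. Myh7 and Tnnt1 had an r of 0.98, Mt1 and Mt2 of 0.96 and mt-Nd1 and mt-Co1 of 0.94 (permutation test, adjusted p of at most 5.71e-05). Beside the pairs already named, Nr1d1 and Ciart (r = 0.40, permutation p = 0.162) and Myod1 and Tnfrsf12a (r = 0.01, permutation p = 0.963) did not pass. Tnfrsf12a lies within exons of Hcfc1r1 on the other strand. A p that misses the threshold does not show that a pair is unrelated.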

How the data were processed

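Poly(A) RNA of the gastrocnemius was sequenced by the authors on stranded libraries as 101-bp paired-end reads, trimmed, aligned with STAR (version 2.7.10a per the labels) and, after reads with a mapping quality under 10 were removed, counted on exons with HOMER (version 4.11). The deposited tables hold estimated counts, in which 1 mate counts as 0.5 read so that 14.8% of the values are not whole, and FPKM, which equaled the deposited counts divided by exon length and by the library's total within 5e-04. The strand option of the counting is not given in the sources used here. The annotation has 57186 rows for 56951 gene symbols; 232 symbols are on more than 1 row, of which the longest row with a mean above 20 reads, or else the longest, was kept.

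The 14 LD libraries were analysed, 1 per mouse, so that every spread includes the preparation of the library; the 16 ADV libraries were not used. Counts were rounded and normalised by TMM in edgeR 4.0.16 (R 4.3.3). Gene-wise and trended dispersions were estimated from an intercept alone, the CV being the square root of the dispersion. Co-variation was measured on log2 CPM with a prior count of 2, by average linkage of Spearman correlations cut at 0.4, for groups of at least 8 genes. Gene pairs were tested by permutation with 100000 resamples (scipy 1.17.1) and Benjamini-Hochberg adjustment over 20 pairs. Each library's GC trend was fitted by a spline with 4 degrees of freedom on genes of at least 50 reads. DESeq2 1.42.0 was an alternative. The scripts were tested on simulated data.

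The named genes are the 20 of highest mean FPKM, the 20 of largest ratio, the most abundant and most variable member of each list, 5 per co-varying group, the paired genes and those next to a threshold; the 10 of smallest ratio all shared the lowest estimate. Further members of lists and groups were named after their values were seen. The members, lists and gene pairs were chosen with earlier results of these data known. Alternatives in which mouse 23 and mouse 33, or a gene's most deviating mouse, were left out were added after seeing the data. Some genes that this rule picks are not reported here.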

Additional observations from a re-analysis of the deposited data

How the results depend on the processing

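The number of genes with a spread ratio over 2 (557) was 1231 on log2(FPKM + 0.1), 1240 on log2(FPKM + 1) and 1370 with the median absolute deviation of log2 CPM. In these the trend runs through the middle of the genes, with a median ratio of 0.992 for log2(FPKM + 0.1), where it is 0.644 in edgeR. The median CV was 10.96% with all genes of over 10 mean reads and 8.94% without mouse 23 and mouse 33. The number of groups depended on the genes entered, with 7 groups of 187 genes from 250 and 24 groups of 802 genes from 1000, and was 20 without mouse 23 and mouse 33. Ranked by reads, the first 10 genes held 27.3% of the counted reads, while the 10 of highest FPKM held 24.9% of them. Without the mitochondrial genome, the first 10 genes held 29.1% of the FPKM. The r of Myod1 and Tnfrsf12a, near 0, changed sign to -0.0033 on log2(FPKM + 0.1), -0.030 with the GC trend removed and -0.26 without the 2 farthest mice. With each mouse left out in turn, the genes expressed numbered 11994 to 12034, those with a ratio over 2 548 to 575, the groups 10 to 15 with 374 to 428 genes, and the median CV was 9.33 to 10.1%. The share of the 10 most abundant genes was then 30.6 to 30.7%, the pairs passing numbered 14 to 17, and the r of Myod1 and Tnfrsf12a ran from -0.22 to 0.22. No paired analysis was possible because only the LD group was analysed. Low counts limit the smallest spreads: the 384 genes at the lowest estimate had a median of 95.4 reads.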
